A study of Mus musculus with 12 samples.

Results

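The receptors through which mouse mast cells sense stem cell factor and cytokines were examined here at the level of their transcripts. The 9 genes were taken from the deposited count table by symbol, out of 16234 genes in all: Kit, Il3ra, Csf2rb, Csf2rb2, Il4ra, Il2rg, Il9r, Il10ra and Ifngr1. No threshold on measured values was applied, but the genes were chosen with earlier results of these data known. Bone marrow-derived mast cells (BMMCs) were grown from mice of both sexes, aged 6 to 12 weeks, on a C57BL/6N background. Their genotypes are labelled wild type (WT), Elk4 heterozygote (HZ) and Elk4 knockout (KO), the WT animals being littermates. Elk4 encodes an ETS-type ternary complex factor that acts with the serum response factor, and the knockout was conventional, so that every cell of the animal carried it. All cultures received IL-3 and stem cell factor (SCF), each at 10 ng/mL, for 4 to 8 weeks, so cells of every group were grown with the ligands of KIT and of the IL-3 receptor. The study's methods do not say whether these ligands were present during IgE loading and antigen. Stimulated BMMCs were loaded overnight with 0.5 µg/mL anti-DNP IgE and then given 100 ng/mL DNP-HSA antigen for 1 h, which crosslinks the high-affinity IgE receptor. The study's methods give these doses and this time for RT-qPCR, and their RNA-seq section gives neither. Unstimulated BMMCs are labelled untreated, and the labels do not say whether they received IgE. Each of the 6 groups (WT, HZ and KO, each unstimulated and stimulated) had 2 libraries, 12 in all. Nothing in the labels says that the replicates came from separate animals or cultures, so p-values measure only the spread between these libraries, which may be technical.

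KIT is the receptor tyrosine kinase for SCF, and mast cells, unlike most blood cells, keep it throughout their life. The cytokine receptors have no kinase of their own. They are pairs or trios of chains that hold Janus kinases (JAKs), which phosphorylate STAT transcription factors when ligand brings the chains together. The IL-3 receptor pairs the alpha chain IL3RA, which gives specificity, with a beta chain that carries the signal. Mice have a beta common chain (Csf2rb), shared with the receptors for GM-CSF and IL-5, and a second beta chain used by IL-3 alone (Csf2rb2). IL4RA binds IL-4 and can join the gamma common chain (Il2rg) to form the type I IL-4 receptor, and IL9R joins the same gamma chain to form the receptor for IL-9, a growth factor for mast cells. IL10RA and IFNGR1 are the ligand-binding chains of the receptors for IL-10 and interferon gamma, whose partner chains are IL10RB and IFNGR2.

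Total counts ranged from 29697958 to 35531667 per library, and all 9 receptor genes passed the filter on low counts, along with 12208 genes in all. Elk4 itself was read in every library, with 2426 and 2740 counts in unstimulated WT, 3238 and 2837 in unstimulated HZ, 2613 and 2253 in unstimulated KO libraries, and with 2322 and 1995, 2139 and 1883, and 1867 and 1971 counts in the stimulated libraries of the same order. A count over the whole gene cannot show a deletion inside it, so these counts do not check the genotype labels, and genotypes are given here as labelled. Of 12 mast cell markers, 11 were in the table, and their summed level was 49253 to 60313 CPM, the read count relative to library size after scaling by trimmed-mean factors. The markers of neutrophils, lymphocytes and stroma summed to at most 0.269, 0.537 and 0.169 CPM. The monocyte and macrophage markers summed to 36.3 to 60.3 CPM in unstimulated and 61.5 to 75.0 CPM in stimulated libraries, mostly Cd68, with 7 of the 11 under 1 CPM in every library. The basophil markers summed to 465 to 675 CPM, nearly all of it Cd200r3. In bulk RNA, fewer cells of a type and less RNA per cell cannot be told apart.

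Sequences help to show 2 things about these genes: which of them have near-identical stretches in which reads could not be assigned with certainty, and which searched motifs stand near the start sites of those genes whose promoters were on hand. Csf2rb and Csf2rb2 were 95.2% identical over 2628 aligned bases of coding sequence (GENCODE M21). Their longest identical run was 242 bases, at coding bases 2083 to 2324 of both genes, and is shown because a read inside it fits both genes equally well.

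Csf2rb and Csf2rb2 shared coding run: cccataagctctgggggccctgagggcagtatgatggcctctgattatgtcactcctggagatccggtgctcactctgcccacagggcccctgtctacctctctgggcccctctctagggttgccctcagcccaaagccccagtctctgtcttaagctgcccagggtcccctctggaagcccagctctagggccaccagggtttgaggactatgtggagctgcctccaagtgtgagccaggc

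Among all windows of 100 bases in their annotated transcripts, 6.46% of those of Csf2rb and 7.05% of those of Csf2rb2 occurred in the other gene, and at 50 bases the shares were 17.1% and 19.3%. Counts of these genes are therefore uncertain to the extent that such reads were split or dropped. Of Il2rg windows, 37.8% at 100 bases also occurred in the overlapping model Gm20489, and the counting rule for overlaps is not given in the sources used here. None of the other 6 genes shared a window of 100 bases with another gene.

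Promoters (250 bases before to 50 after the start site, RefSeq, GRCm38.p6) were on hand for 7 of the 9 genes, 8 promoters in all since Kit had 2. Csf2rb and Il10ra had no entry. The 3 below are those in which a searched motif was found, and they belong to the receptor gene with the widest range (Il9r), a receptor gene that rose with antigen (Il2rg) and the receptor gene with the highest level (Csf2rb2). Capitals mark the matches.

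Il9r promoter, chr11:32200230-32200529, minus strand: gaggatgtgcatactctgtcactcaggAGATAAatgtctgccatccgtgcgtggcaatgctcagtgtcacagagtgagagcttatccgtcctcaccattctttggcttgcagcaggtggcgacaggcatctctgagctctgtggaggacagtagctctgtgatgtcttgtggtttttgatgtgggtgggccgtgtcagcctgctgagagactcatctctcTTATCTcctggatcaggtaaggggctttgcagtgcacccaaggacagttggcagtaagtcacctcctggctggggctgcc

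Il2rg promoter, chrX:101268206-101268505, minus strand: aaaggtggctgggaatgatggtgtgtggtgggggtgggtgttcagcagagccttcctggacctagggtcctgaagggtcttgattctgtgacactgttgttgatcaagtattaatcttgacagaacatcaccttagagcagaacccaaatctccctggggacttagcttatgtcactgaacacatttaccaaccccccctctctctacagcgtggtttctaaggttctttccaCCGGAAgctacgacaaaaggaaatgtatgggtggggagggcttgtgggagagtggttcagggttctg

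Csf2rb2 promoter, chr15:78305672-78305971, minus strand: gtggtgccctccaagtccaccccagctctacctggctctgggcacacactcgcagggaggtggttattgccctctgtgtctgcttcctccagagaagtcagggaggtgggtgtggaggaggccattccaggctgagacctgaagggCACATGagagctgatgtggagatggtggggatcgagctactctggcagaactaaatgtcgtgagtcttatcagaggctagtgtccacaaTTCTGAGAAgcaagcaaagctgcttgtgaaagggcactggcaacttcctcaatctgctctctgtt

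The search covered both strands. The Il9r window held the GATA motif AGATAA starting at -223 on the gene's strand and at -30 on the other strand, and 11.2% of all 32851 promoters of this length held it. The Il2rg window held the short ETS core CCGGAA at -17, found in 14.9% of all promoters, while its longer form CCGGAAGT, a common ETS consensus, was in 0 of the 8 receptor promoters and in 3.89% of all promoters. The Csf2rb2 window held the STAT palindrome TTCNNNGAA at -15 (8.3% of all promoters) and the MITF site CATGTG at -104 on the other strand (14.2%). The E-box CACGTG was in none of the 8 and in 7.15% of all. Kit, Il3ra, Il4ra and Ifngr1 windows held none of the 6 motifs, which says only that these letters are not in these windows.

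The receptor genes spanned a wide range of levels. On the deposited FPKM scale, which is per length and so allows genes to be compared, Csf2rb2 was highest with a median of 2092 over the 12 libraries (range 1701 to 2841) and was the ninth most abundant of all genes in unstimulated WT BMMCs (rank 9). Csf2rb followed with a median of 1084 FPKM (844 to 1468, rank 17) and Kit with 912 FPKM (736 to 1080, rank 25). The ranges of Csf2rb and Kit overlapped, although Csf2rb was above Kit in every library. These 3 genes, the SCF receptor and both beta chains, stood apart from the rest.

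Il4ra (median 228 FPKM, 152 to 364), Il2rg (198 FPKM, 154 to 240) and Il10ra (145 FPKM, 84.7 to 184) formed an overlapping middle group. Il4ra was above Il2rg in all 6 unstimulated libraries and below it in all 6 stimulated ones. Il3ra lay lower, with a median of 42.3 FPKM (36.2 to 55.1), so the IL-3-specific alpha chain was far less abundant than its beta chains. Ifngr1 (median 7.63 FPKM, 5.23 to 10.4) and Il9r (7.07 FPKM, 1.66 to 19.3) were lowest and overlapped. Il9r had the widest range, its highest library being 11.6 times its lowest, against 2.39 times or less for the other 8 genes. The order was the same for all 9 genes with trimmed-mean scaled counts per kilobase. The gene lengths used for that were derived from the FPKM values themselves. The order within a library could therefore not change, and this is no independent check.

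**Figure D1:**
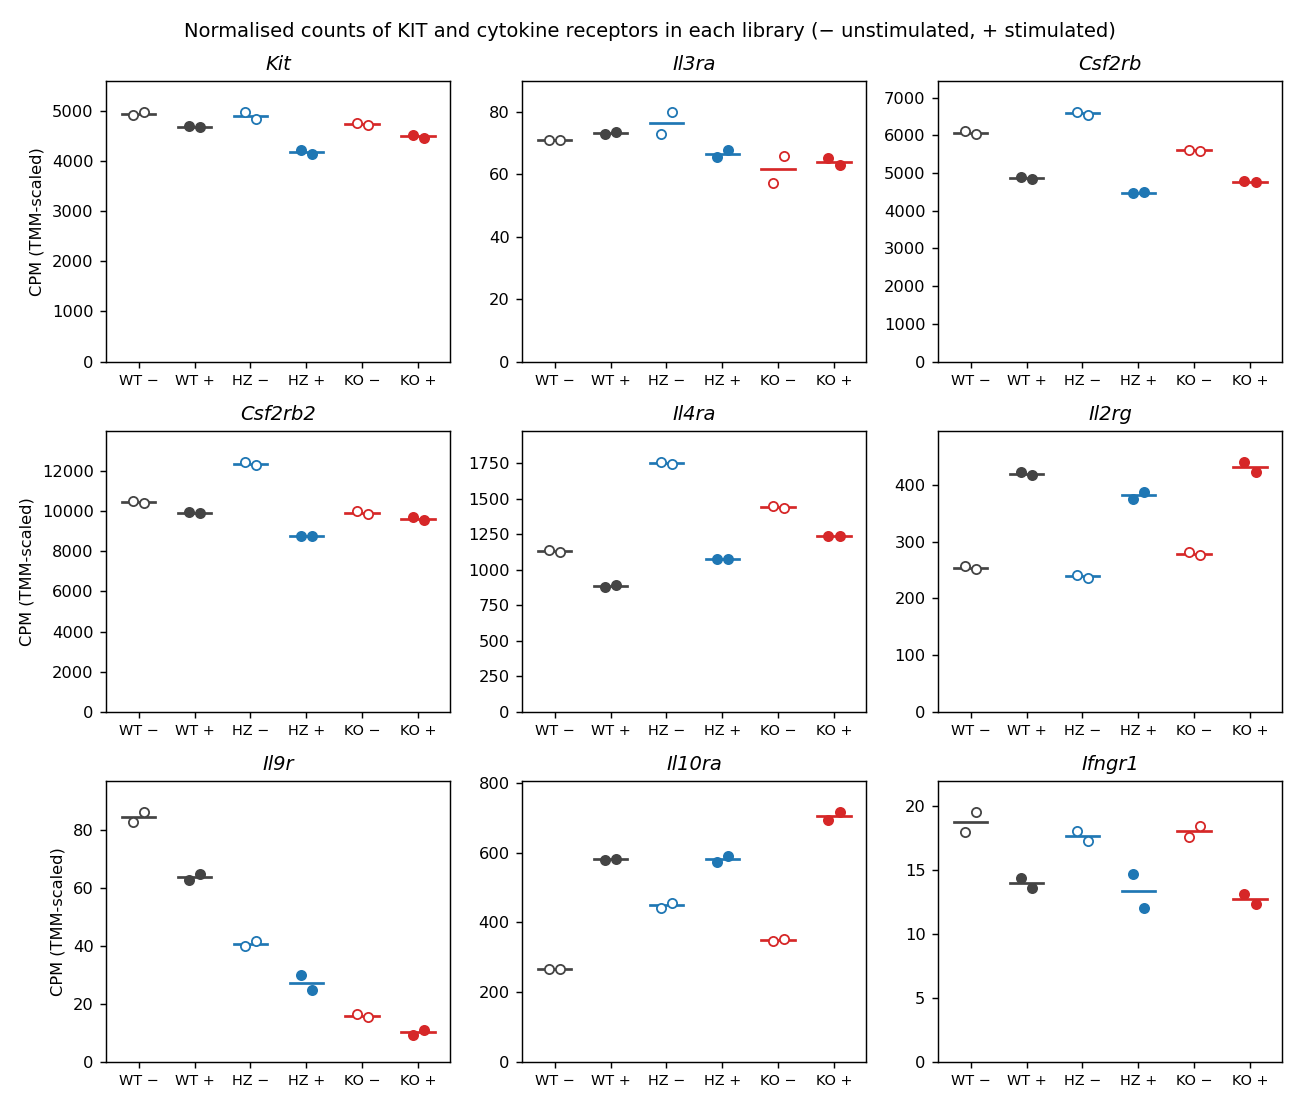
Level of each receptor gene in CPM after trimmed-mean scaling (linear axes from 0, 1 panel per gene) in the 12 libraries, with open points for unstimulated (-) and filled points for stimulated (+) libraries and a line at each group's mean. Il9r steps down from 82.9 and 86.2 CPM in unstimulated WT to 9.20 and 11.2 CPM in stimulated KO libraries, and Il10ra and Il2rg are higher in every stimulated than in any unstimulated library.

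Comparing stimulated with unstimulated BMMCs asks how receptor transcripts stood 1 h after antigen. In WT BMMCs, 2 of the 9 receptor genes rose and 6 fell, and 1 did not pass the test (edgeR quasi-likelihood, Benjamini-Hochberg adjusted p below 0.05 over all genes tested). With trimmed-mean scaling the rises, of Il10ra and Il2rg, were larger than any of the falls. Of all 12208 genes, 45.3% passed in WT BMMCs, 22.4% higher and 22.9% lower. In HZ BMMCs 2 receptor genes rose and 7 fell, where 64.4% of all genes passed (32.9% higher, 31.6% lower). In KO BMMCs 2 rose and 6 fell, where 40.8% passed (20.4% higher, 20.5% lower). The libraries before and after antigen did not overlap for 9 receptor genes in WT, 9 in HZ and 8 in KO BMMCs, against 70.5%, 80.2% and 68.5% of all genes. The 2-fold threshold was met by Il10ra alone, in WT and in KO BMMCs, where 6.77% and 6.61% of all genes met it, and by none in HZ BMMCs, where 14.3% did. With scaling by library totals the log2 fold change of Il10ra was below 2-fold in all 3 genotypes, at 0.82 in WT, 0.14 in HZ and 0.72 in KO BMMCs, and the rise of Il2rg in WT BMMCs (0.42) was smaller than the falls of Csf2rb, Il4ra, Il9r and Ifngr1 (-0.63 to -0.73). In the 3 comparisons the median log2 fold change over the 9 genes was -0.078, -0.40 and -0.076, against -0.013, -0.0048 and -0.0068 over all genes.

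**Figure D2:**
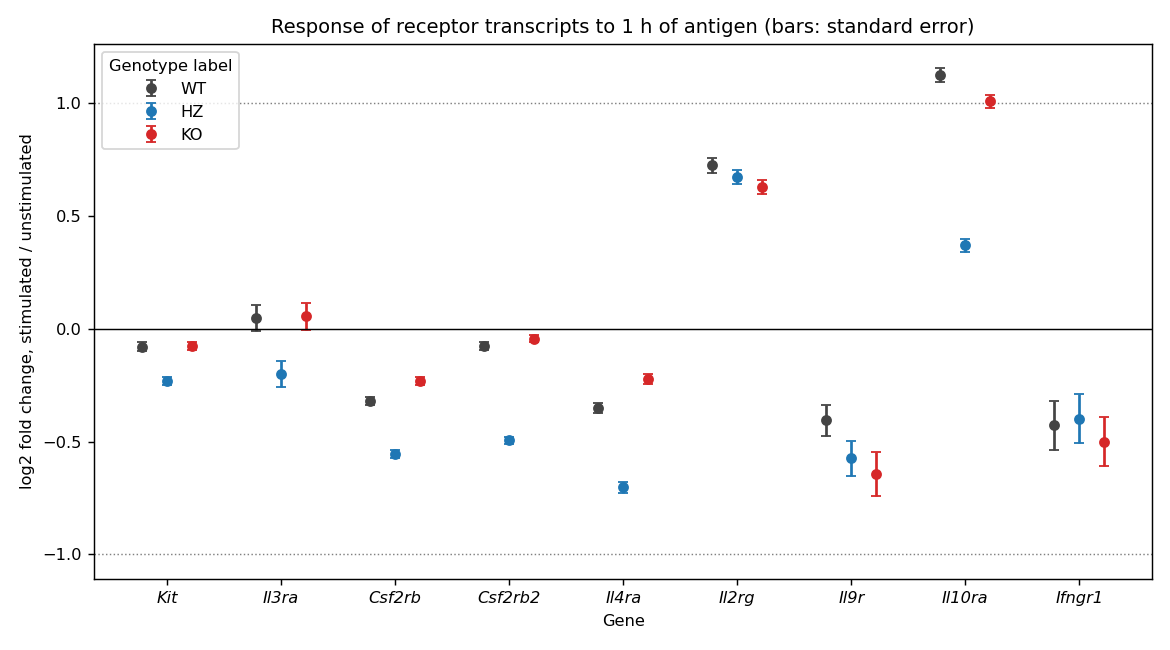
Log2 fold change of each receptor gene, stimulated over unstimulated, in WT, HZ and KO BMMCs, as fitted across all 12 libraries with its standard error as the bar, and with dotted lines at 2-fold. Il2rg and Il10ra are above 0 in all 3 genotypes, Il10ra being lowest in HZ BMMCs (0.37), and the falls of Kit, Csf2rb, Csf2rb2 and Il4ra are largest in HZ BMMCs.

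Il10ra, the ligand-binding chain for IL-10, had the largest change with antigen of the 9 genes in WT and KO BMMCs, and one of the smaller changes in HZ BMMCs. Its level was 266 and 267 CPM in unstimulated and 579 and 583 CPM in stimulated WT libraries. In HZ libraries it was 442 and 455 CPM before and 572 and 589 CPM after antigen, and in KO libraries 348 and 352 before and 693 and 715 CPM after antigen. All 6 stimulated libraries were above all 6 unstimulated ones, and the starting level was highest in HZ libraries. The monocyte and macrophage markers, mostly Cd68, were also higher in all 6 stimulated than in any unstimulated library, and their part in the rises of Il10ra and Il2rg was not tested. The rise was 2.18-fold in WT BMMCs (log2 fold change 1.13, SE 0.029, edgeR adjusted p = 4.77e-34), 2.01-fold in KO BMMCs (log2 fold change 1.01, adjusted p = 2.27e-32) and 1.29-fold in HZ BMMCs (log2 fold change 0.37, adjusted p = 8.44e-16). Its partner chain Il10rb had a log2 fold change of -0.0016 in WT BMMCs, with an adjusted p of 0.993. Within each library the Il10ra to Il10rb ratio in FPKM was 9.90 and 11.1 in unstimulated and 23.2 and 22.7 in stimulated WT BMMCs, and 17.7 and 16.2 against 36.2 and 41.2 in KO BMMCs.

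Il2rg, the gamma common chain, was the other receptor gene that rose. WT libraries held 257 and 252 CPM before and 423 and 418 CPM after antigen, HZ libraries 242 and 236 before and 376 and 388 CPM after antigen, and KO libraries 281 and 277 before and 440.4 and 424 CPM after antigen. The stimulated libraries of every genotype were above all unstimulated ones. It was 1.65-fold in WT (log2 fold change 0.73, SE 0.032, edgeR adjusted p = 9.45e-25), 1.60-fold in HZ and 1.55-fold in KO BMMCs. The response differences between genotypes did not pass the test, with a log2 difference of -0.095 (95% confidence interval before adjustment -0.18 to -0.0057, edgeR adjusted p = 0.201) for KO minus WT and -0.050 (-0.14 to 0.040, adjusted p = 0.413) for HZ minus WT. The overlap with Gm20489 noted beside the sequences applies to these values.

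Il4ra, which pairs with the gamma chain, moved the other way. Its level was 1137 and 1123 CPM in unstimulated and 879.5 and 893 CPM in stimulated WT libraries, 1755 and 1747 before and 1074 and 1078 CPM after antigen in HZ libraries, and 1446 and 1435 before and 1237 and 1233 CPM after antigen in KO libraries. Within each genotype the groups did not overlap, and the fall was deepest from the high unstimulated HZ level. Il4ra fell 1.28-fold in WT (log2 fold change -0.35, SE 0.023, edgeR adjusted p = 8.87e-18), 1.63-fold in HZ (-0.70 on the log2 scale) and 1.17-fold in KO BMMCs (-0.22). With Il2rg higher and Il4ra lower, the Il2rg to Il4ra ratio in FPKM went from 0.711 and 0.705 to 1.51 and 1.47 in WT, from 0.434 and 0.425 to 1.10 and 1.13 in HZ and from 0.612 and 0.608 to 1.12 and 1.08 in KO libraries. The ratio was thus below 1 in all 6 unstimulated and above 1 in all 6 stimulated libraries. A ratio within a library does not depend on how libraries are scaled to each other.

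**Figure D3:**
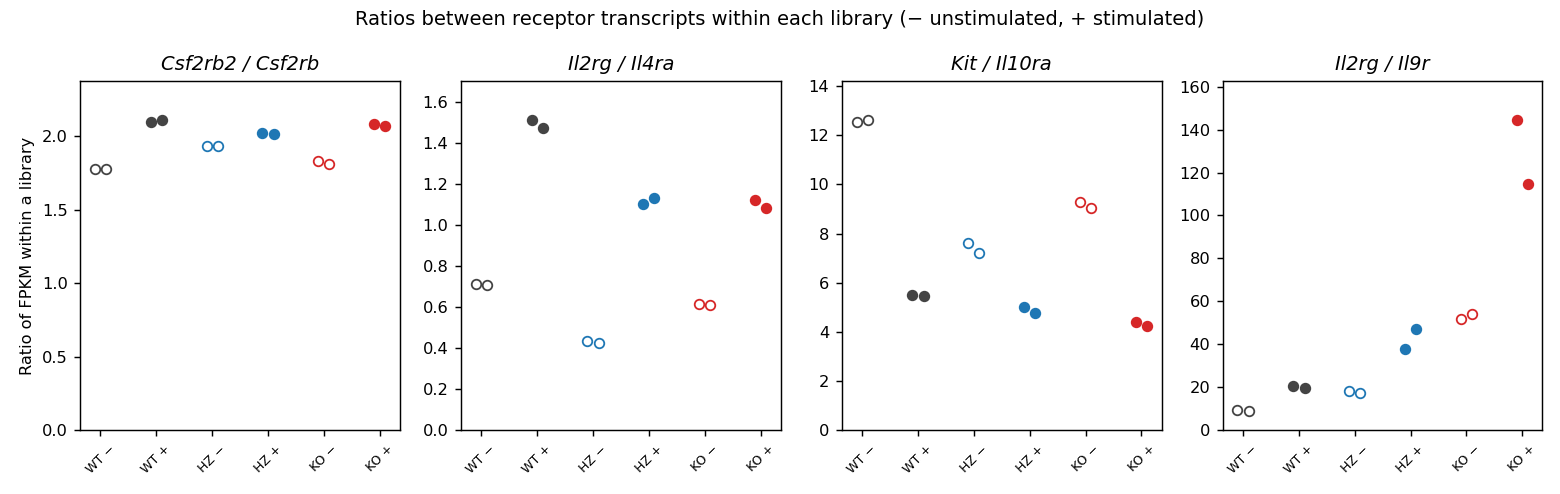
Ratios of receptor genes in FPKM within each library (linear axes from 0, 1 point per library, open for unstimulated and filled for stimulated), by genotype label. The Il2rg to Il4ra ratio lies between 0.425 and 1.51, the Csf2rb2 to Csf2rb ratio between 1.77 and 2.11 and higher after antigen in every genotype, and the Kit to Il10ra ratio falls from 12.5 and 12.6 to 5.49 and 5.44 in WT libraries.

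The beta chains fell while keeping most of their level. Csf2rb was at 6102 and 6039 CPM in unstimulated and 4889 and 4831 CPM in stimulated WT libraries, 6612 and 6546 before and 4466 and 4484 CPM after antigen in HZ libraries, and 5621 and 5592 before and 4790 and 4754 CPM after antigen in KO libraries. Csf2rb, the shared beta chain, was lower in every stimulated library than in any unstimulated one. It fell 1.25-fold in WT (log2 fold change -0.32, SE 0.018, edgeR adjusted p = 7.39e-21), 1.47-fold in HZ (-0.56) and 1.17-fold in KO BMMCs (-0.23).

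Csf2rb2, the beta chain of the IL-3 receptor alone, stood at 10537 and 10410 CPM in unstimulated and 9962 and 9915 CPM in stimulated WT libraries, 12444 and 12308 before and 8779 and 8790 CPM after antigen in HZ libraries, and 9997 and 9843 before and 9692 and 9576 CPM after antigen in KO libraries. The unstimulated HZ libraries were the highest and the stimulated HZ libraries the lowest. The log2 fold changes were -0.076 in WT (edgeR adjusted p = 8.89e-05), -0.49 in HZ (adjusted p = 2.24e-30) and -0.042 in KO BMMCs (adjusted p = 0.0283). The KO value lost its call without the first unstimulated KO library (-0.038, adjusted p = 0.142) and without either stimulated KO library (-0.051 and -0.034, adjusted p = 0.0548 and 0.231), and with DESeq2 (-0.029, adjusted p = 0.155). The Csf2rb2 to Csf2rb ratio in FPKM was 1.78 and 1.77 before and 2.10 and 2.11 after antigen in WT libraries, 1.94 and 1.93 before and 2.02 and 2.02 after antigen in HZ libraries, and 1.83 and 1.81 before and 2.08 and 2.07 after antigen in KO libraries. The stretches that both genes share touch this ratio.

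Il3ra, the alpha chain, was at 71.1 and 71.00 CPM before and 73.1 and 73.6 CPM after antigen in WT, 72.99 and 79.96 before and 65.6 and 67.7 CPM after antigen in HZ, and 57.4 and 65.8 before and 65.2 and 62.9 CPM after antigen in KO libraries. It did not pass the test in WT (log2 fold change 0.047, 95% confidence interval -0.069 to 0.16) or KO BMMCs (0.056, -0.062 to 0.17), and it fell in HZ BMMCs (-0.20, edgeR adjusted p = 0.00251). The HZ call was lost without the second unstimulated HZ library (-0.13, adjusted p = 0.0985). Scaling by library totals turned the direction in WT (-0.26, adjusted p = 9.98e-05) and KO BMMCs (-0.23, adjusted p = 0.000583). That scaling moved the median of all genes by -0.32, -0.24 and -0.30 in WT, HZ and KO BMMCs, and all changes here are given relative to the trimmed-mean scaling. Of the genes called in WT BMMCs, 49.4% were higher with trimmed-mean scaling and 10.2% with library totals. The corresponding shares were 51.0% and 29.3% in HZ and 49.9% and 10.5% in KO BMMCs.

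Kit, the SCF receptor, was lower after antigen, by an amount that depended on the scaling. WT libraries were at 4925 and 4978 CPM before and 4698 and 4685 CPM after antigen, HZ libraries at 4979 and 4846 before and 4229 and 4150 CPM after antigen, and KO libraries at 4771 and 4714 before and 4529 and 4468 CPM after antigen. Every stimulated library was below every unstimulated one, by a small margin in WT and KO BMMCs. Kit fell 1.06-fold in WT (log2 fold change -0.078, SE 0.019, edgeR adjusted p = 0.000562), 1.05-fold in KO (-0.076) and 1.17-fold in HZ BMMCs (-0.23) with trimmed-mean scaling. With library totals the log2 fold changes were -0.39 in WT (adjusted p = 6.54e-23), -0.46 in HZ (adjusted p = 3.58e-26) and -0.37 in KO BMMCs (adjusted p = 5.38e-22). The falls of Csf2rb2 in WT and KO BMMCs depended on the scaling in the same way, at -0.38 and -0.33 with library totals.

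Ifngr1 and Il9r, the least abundant receptor genes, fell in each genotype. Ifngr1 was at 17.99 and 19.5 CPM before and 14.3 and 13.6 CPM after antigen in WT libraries, 18.1 and 17.3 before and 14.7 and 12.04 CPM after antigen in HZ libraries, and 17.6 and 18.5 before and 13.2 and 12.3 CPM after antigen in KO libraries. The log2 fold changes of Ifngr1, the binding chain for interferon gamma, were -0.43 (SE 0.11, edgeR adjusted p = 0.0011), -0.40 and -0.50 in WT, HZ and KO BMMCs. Without the second stimulated HZ library the HZ call was lost (-0.26, adjusted p = 0.0727). The table listed its partner Ifngr2 at 1 to 19 counts per library, so the transcript of the second chain of this receptor was near the limit of detection at this depth.

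Il9r counts show its depth directly: unstimulated WT libraries had 2747 and 3014, HZ libraries 1385 and 1378 and KO libraries 614 and 547. After antigen the counts were 1869 and 1928, 984 and 733 and 256 and 321. On the CPM scale WT libraries held 82.9 and 86.2 before and 62.9 and 64.7 after antigen, HZ libraries 39.9 and 41.8 and then 29.98 and 24.8, and KO libraries 16.4 and 15.4 and then 9.20 and 11.2. No group overlapped another, and the order WT, HZ, KO held before and after antigen. With antigen Il9r fell 1.32-fold in WT (log2 fold change -0.41, SE 0.069, edgeR adjusted p = 3.31e-06), 1.49-fold in HZ (-0.57) and 1.56-fold in KO BMMCs (-0.64). These falls did not differ between genotypes by the test of the response difference. It was -0.17 for HZ minus WT (edgeR adjusted p = 0.212) and -0.069 for KO minus HZ (adjusted p = 0.704). For KO minus WT it was -0.24 (95% confidence interval before adjustment -0.48 to 0.0057, adjusted p = 0.252).

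Comparing genotypes asks which receptor transcripts differed with the Elk4 label. Il9r stood out in every genotype comparison, lower in HZ than in WT and lower again in KO, and Il4ra was higher in HZ and KO than in WT before and after antigen. Il10ra was higher in HZ and KO than in WT BMMCs before antigen. Kit and Csf2rb differed by at most 1.17-fold between genotypes. Comparisons of HZ and of KO with WT share the WT libraries.

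**Figure D4:**
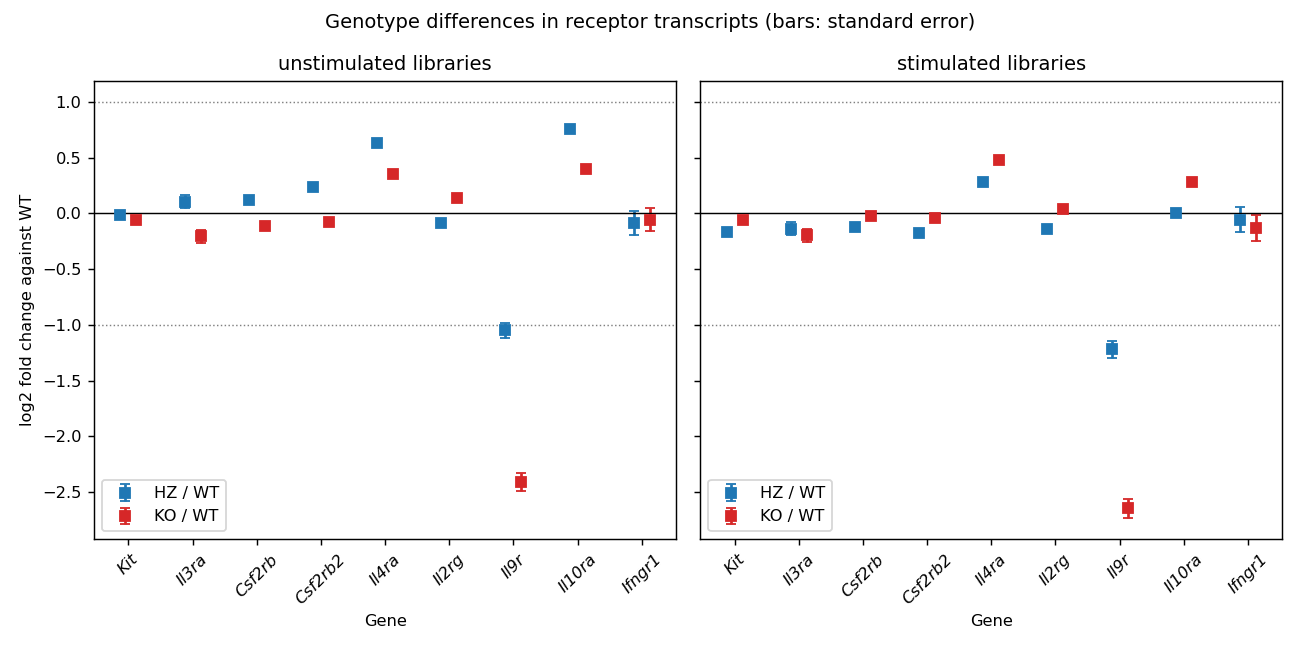
Log2 fold change of each receptor gene in HZ and KO against WT BMMCs, in unstimulated (left) and stimulated (right) libraries, with the standard error as the bar and dotted lines at 2-fold. Il9r is beyond 2-fold in all 4 comparisons, from -1.05 to -2.65, and Il4ra is above 0 in all 4, from 0.28 to 0.63.

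In unstimulated BMMCs, 6 receptor genes passed between HZ and WT (4 higher, 2 lower), against 51.4% of all genes (25.4% higher, 26% lower). Between KO and WT 8 passed (3 higher, 5 lower), against 44.6% (22.9% higher, 21.7% lower), and between KO and HZ 8 passed (1 higher, 7 lower), against 45.2% (23.4% higher, 21.8% lower). In stimulated BMMCs 6 passed between HZ and WT (1 higher, 5 lower), against 34.9% of all genes (18.4% higher, 16.5% lower). Between KO and WT 6 passed (2 higher, 4 lower), against 40.4% (21.2% higher, 19.2% lower), and between KO and HZ 7 passed (6 higher, 1 lower), against 24.9% (12.9% higher, 12% lower). Il9r was the only receptor gene past 2-fold in these 6 comparisons. Of all genes, 9.15%, 7.51% and 3.36% met 2-fold before antigen (HZ against WT, KO against WT and KO against HZ) and 4.51%, 7.76% and 2.1% after it. In the same order, the libraries of 7, 8 and 8 receptor genes did not overlap before antigen, against 73.6%, 71.2% and 70.5% of all genes, and those of 7, 9 and 8 after it, against 65%, 67.7% and 59.1%. The median absolute log2 fold change of the receptor genes was 0.12, 0.14 and 0.28 before antigen, against 0.26, 0.21 and 0.23 over all genes. After antigen it was 0.14, 0.13 and 0.13, against 0.18, 0.20 and 0.14. More calls than the share of all genes therefore did not mean larger differences, except in unstimulated KO against HZ.

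Unstimulated Il9r was 84.5 ± 2.29 CPM in WT, 40.8 ± 1.35 CPM in HZ and 15.9 ± 0.677 CPM in KO BMMCs (mean ± SD, n = 2 libraries each). It was 2.07-fold lower in HZ than in WT (log2 fold change -1.05, SE 0.071, edgeR adjusted p = 1.76e-17) and 5.32-fold lower in KO than in WT (-2.41, SE 0.078, adjusted p = 1.95e-29). KO was 2.57-fold below HZ (-1.36, adjusted p = 4.28e-19). After antigen it was 2.33-fold lower in HZ and 6.26-fold lower in KO than in WT BMMCs. The gamma chain with which IL9R pairs did not follow it, so the Il2rg to Il9r ratio in FPKM ran from 9.36 and 8.82 in unstimulated WT to 51.9 and 54.3 in unstimulated KO and 145 and 115 in stimulated KO libraries. The summed dendritic cell markers were also highest in WT, at 4.41 to 7.61 CPM, against 0.791 to 2.00 CPM in HZ and KO libraries. Before antigen they did not step down from HZ (1.33 to 1.47 CPM) to KO (1.52 to 2.00 CPM). The sum was mostly Itgax, with 4 of the 5 markers in the table under 1 CPM in every library. The part of such cells in the Il9r result was not tested.

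Il4ra was 1.55-fold higher in unstimulated HZ (0.63, SE 0.023, edgeR adjusted p = 1.39e-27) and 1.27-fold higher in unstimulated KO than in WT BMMCs (0.35, adjusted p = 1.03e-17). After antigen KO was above HZ and HZ above WT: 1.39-fold for KO over WT (0.48, adjusted p = 1.69e-22), 1.21-fold for HZ over WT and 1.15-fold for KO over HZ. Its pairing chain Il2rg differed less. Il2rg was 1.10-fold higher in unstimulated KO than in WT BMMCs (edgeR adjusted p = 0.000441) and 1.10-fold lower in stimulated HZ (adjusted p = 0.000397). Its value in unstimulated HZ against WT (-0.088, adjusted p = 0.0191) lost its call without the first unstimulated WT library (-0.074, adjusted p = 0.120) and without the second HZ library (-0.073, adjusted p = 0.112).

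Il10ra was 1.69-fold higher in unstimulated HZ (log2 fold change 0.75, SE 0.029, edgeR adjusted p = 1.59e-26) and 1.31-fold higher in unstimulated KO than in WT BMMCs (0.39, adjusted p = 6.76e-16). After antigen KO was 1.21-fold above WT (adjusted p = 2.00e-11). Stimulated HZ and WT libraries overlapped, with a log2 difference of -0.0011 and a 95% confidence interval of -0.058 to 0.056. The partner Il10rb was lower in unstimulated KO (-0.30, adjusted p = 0.0227) and stimulated KO (-0.47, adjusted p = 0.000609) than in WT BMMCs, opposite to Il10ra. Mean Il10rb was below WT in HZ too, at 14.0 against 17.2 CPM before and 11.3 against 17.1 CPM after antigen.

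The chains of the IL-3 receptor also differed between genotypes. Csf2rb2 was 1.18-fold higher in unstimulated HZ than in WT BMMCs (0.24, edgeR adjusted p = 5.97e-18), and Csf2rb 1.08-fold higher (0.12, adjusted p = 2.29e-07). In unstimulated KO both were lower than in WT, by 1.06-fold and 1.08-fold. Unstimulated KO was also below HZ for Csf2rb2 (1.25-fold, -0.32, adjusted p = 6.39e-22), Csf2rb (1.17-fold, -0.23, adjusted p = 2.07e-15) and Il3ra (1.24-fold, -0.31, adjusted p = 1.17e-05). After antigen the order of HZ and WT was opposite for the beta chains, with Csf2rb2 1.13-fold lower in HZ (-0.18, edgeR adjusted p = 4.35e-13) and Csf2rb 1.09-fold lower (-0.12, adjusted p = 2.98e-07). Il3ra was 1.15-fold lower in unstimulated KO (-0.21, adjusted p = 0.00279) and 1.15-fold lower in stimulated KO than in WT BMMCs (-0.20, adjusted p = 0.00603). The Il3ra difference from WT before antigen lost its call without the first unstimulated KO library (-0.11, adjusted p = 0.211), and that after antigen without the second stimulated KO library (-0.17, adjusted p = 0.0697). Stimulated KO against WT held 3 calls of receptor genes without that second library, those lost being Kit, Il3ra and Csf2rb2. The unstimulated HZ libraries, where Csf2rb2, Csf2rb, Il4ra and Il10ra were high, also had the highest summed mast cell markers (58801 and 60313 CPM, against 49253 to 55322 CPM elsewhere) and the highest summed erythroid and megakaryocyte markers (2439 and 2446 CPM, against 1594 to 1830 CPM), most of the latter being Itga2b. Their summed basophil markers were highest too (674 and 675 CPM, against 465 to 601 CPM), nearly all of it Cd200r3. The part of these in the HZ values was not tested.

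Kit was 1.04-fold lower in unstimulated KO than in WT BMMCs (-0.062, edgeR adjusted p = 0.00546), a call lost without the second unstimulated WT library (-0.050, adjusted p = 0.0742) or the second KO library (-0.054, adjusted p = 0.0694). Unstimulated HZ and WT overlapped (-0.012, 95% confidence interval -0.049 to 0.026). Unstimulated KO was below HZ for Kit (-0.051, edgeR adjusted p = 0.0234). That call was lost with library totals (-0.023, edgeR adjusted p = 0.318) and in all limma fits (-0.023, limma adjusted p = 0.404 to 0.514). After antigen Kit was 1.12-fold lower in HZ than in WT BMMCs (-0.16, adjusted p = 7.27e-10). Ifngr1 passed in none of the 6 genotype comparisons, its log2 differences lying between -0.13 and 0.028, and the confidence interval of the largest being -0.36 to 0.099.

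Whether the response to antigen itself differed between genotypes was tested as an interaction. The responses of HZ and WT BMMCs differed for 6 of the 9 receptor genes, all lower in HZ (38.5% of all genes passed, 19.9% higher and 18.6% lower). For KO minus HZ 6 passed, all higher in KO (41.5% of all genes, 20.2% higher and 21.3% lower), and for KO minus WT 2 passed, both higher (9.27% of all genes, 5.44% higher and 3.83% lower). The HZ minus WT and KO minus HZ values share the HZ libraries, and each shares its unstimulated libraries with the genotype comparison before antigen. Il10ra differed most, with a log2 difference of -0.76 for HZ minus WT (SE 0.041, edgeR adjusted p = 1.57e-20). For Kit, Il3ra, Csf2rb, Csf2rb2 and Il4ra the difference lay between -0.15 and -0.42. The Kit call for HZ minus WT was lost in all limma fits on FPKM (-0.075, limma adjusted p = 0.0663 to 0.123). The Il3ra call was lost in them too (-0.16 to -0.17, limma adjusted p = 0.120 to 0.240), and with library totals (-0.17, edgeR adjusted p = 0.0971). The Il3ra difference lost its call without the second unstimulated HZ (-0.19, adjusted p = 0.0882) or the first stimulated HZ library (-0.22, adjusted p = 0.0575). For KO minus HZ the Il3ra difference (0.25, edgeR adjusted p = 0.0105) lost its call without the second unstimulated HZ (0.18) or the first unstimulated KO library (0.15). That call was lost in all limma fits too (0.20, limma adjusted p = 0.0653 to 0.156). KO minus WT passed for Csf2rb (0.089, adjusted p = 0.0152) and Il4ra (0.13, adjusted p = 0.00636), each falling less in KO. Without the first unstimulated WT library these values were 0.057 (adjusted p = 0.210) and 0.096 (adjusted p = 0.0917). Without the first unstimulated KO library they were 0.071 (adjusted p = 0.128) and 0.11 (adjusted p = 0.0520). The Csf2rb call alone was lost without the second unstimulated WT (adjusted p = 0.102), the second stimulated WT (0.0838), the second unstimulated KO (0.0685) or the first stimulated KO library (0.0910). Il10ra missed in KO minus WT (-0.12, adjusted p = 0.061) and passed with DESeq2 (-0.12, adjusted p = 0.0388). It was the 1 gene that passed without the first unstimulated WT (-0.14, adjusted p = 0.0480) and without the first unstimulated KO library (-0.15, adjusted p = 0.0343).

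Beside Il3ra, Csf2rb and Csf2rb2, the beta common chain list holds the GM-CSF receptor alpha chain Csf2ra and the IL-5 receptor alpha chain Il5ra, and 3 of its 5 genes fell in WT BMMCs with none higher (median log2 fold change -0.076, against -0.013 over all genes, of which 22.4% rose and 22.9% fell in WT BMMCs). Csf2ra (822 to 964 counts in WT libraries) did not pass (0.032, adjusted p = 0.792), while Il5ra, at 150 and 169 counts before and 84 and 66 after antigen, fell (-0.89, adjusted p = 0.00403). Of 8 gamma chain receptors and partners tested, 3 rose and 2 fell with antigen in WT BMMCs (median -0.12). Il7r, the IL-7 receptor alpha chain, rose from 46 and 45 to 219 and 208 counts (5.36-fold, edgeR adjusted p = 2.10e-09), and Il2ra, the IL-2 receptor alpha chain, from 321 and 310 to 472 and 452 counts (1.68-fold, adjusted p = 3.96e-05). Both were lower in unstimulated KO than in WT BMMCs, Il2ra 2.45-fold and Il7r 2.20-fold. The same held for unstimulated HZ, at means of 4.51 against 9.27 CPM for Il2ra and 0.639 against 1.34 CPM for Il7r. Il13ra1, the other partner of IL4RA, had 0 to 2 counts in every library.

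In the interferon and IL-10 receptor list, 1 of 7 genes tested rose with antigen in WT BMMCs (Il10ra) and 3 fell, among them Ifnar1, a chain of the type I interferon receptor (-0.43, edgeR adjusted p = 2.46e-05), and Il20rb, a chain of the IL-20 receptors (-0.68, adjusted p = 0.0112). Of 7 other class I cytokine receptors tested, 1 rose and 2 fell, each by under 2-fold, Il6st, the shared chain of the IL-6 family, falling most (-0.57, adjusted p = 0.0199). Of all genes, 22.4% rose and 22.9% fell with antigen in WT BMMCs. In that list the differences between KO and WT reached further: Il12rb1, a chain of the IL-12 and IL-23 receptors, was 2.32-fold lower in unstimulated and 1.81-fold lower in stimulated KO than in WT BMMCs (adjusted p = 5.09e-11 and 9.41e-07). Il27ra, the IL-27 receptor alpha chain, was 1.59-fold and 1.70-fold lower, and Epor, the erythropoietin receptor, 1.60-fold and 2.28-fold lower. Before antigen the HZ means of Il12rb1 (12.1 CPM) and Il27ra (52.6 CPM) lay between those of WT and KO. Mean Epor in HZ was then above WT (5.97 against 3.34 CPM). The list held differences in both directions, with 2 higher and 3 lower before antigen (median -0.67) and 1 higher and 3 lower after it (median 0.22). Of all genes, 22.9% were higher and 21.7% lower in KO than in WT before antigen, and 21.2% and 19.2% after it. Higher in KO were Il11ra1, the IL-11 receptor alpha chain, before antigen (0.50, edgeR adjusted p = 0.0399) and Il12rb2, the other chain of the IL-12 receptor, before and after it (0.34 and 0.22, adjusted p = 0.000369 and 0.0254). Among the receptor kinases related to KIT only 2 of the 5 in the table passed the filter on low counts, and Kit was the one that passed the test in WT BMMCs.

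The ligands of these receptors held larger changes with antigen. Of 7 tested in WT BMMCs 4 rose, all beyond 2-fold, and none fell, where 6.77% of all genes met 2-fold. Csf2, which encodes GM-CSF, had 0 to 1 counts in each unstimulated library and 668 to 1112 in each stimulated one, and Il3 had 0 in each unstimulated library and 98 to 276 in each stimulated one. Il13, which signals through IL4RA, rose 58.9-fold in WT BMMCs (from 647 and 798 to 36615 and 37665 counts, edgeR adjusted p = 3.42e-56), and Il4 rose 4.80-fold (adjusted p = 6.72e-21). In stimulated KO BMMCs Il13 was 1.30-fold lower than in WT (adjusted p = 2.83e-13), Il15 was 1.28-fold lower (adjusted p = 0.0166), and Il7 had 3 and 9 counts against 42 and 45 in WT (adjusted p = 0.000527). Means in stimulated HZ BMMCs were also below WT, at 967 against 1249 CPM for Il13 and 10.2 against 13.3 CPM for Il15. Il7 had 16 to 29 counts in stimulated HZ libraries.

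Downstream, 2 of 11 JAK and STAT genes rose and 5 fell with antigen in WT BMMCs, with a median log2 fold change of -0.11, against 22.4% of all genes higher and 22.9% lower. In HZ BMMCs 10 of the 11 fell and none rose (median -0.32), where 31.6% of all genes fell, and in KO BMMCs 1 rose and 4 fell (median -0.047), where 20.5% fell. Stat5a, a main carrier of IL-3 signals, fell in WT BMMCs (-0.51, edgeR adjusted p = 1.73e-12), as did Stat2 (-0.71) and Stat3 (-0.25). Stat5a and Stat3 were higher in unstimulated KO than in WT BMMCs (0.42 and 0.38) and Jak2, the kinase bound to the beta chains, was lower (-0.28). Unstimulated HZ means were above WT for Stat5a (125 against 105 CPM) and Stat3 (182 against 139 CPM). For Jak2 the HZ mean was above WT (184 against 144 CPM), opposite to KO.

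Of 20 KIT adaptors and proximal signalling genes, 9 rose and 5 fell with antigen in WT BMMCs (median 0.072), none by 2-fold, where 22.4% of all genes rose and 22.9% fell. Src, the founding Src family kinase, fell (-0.56, adjusted p = 0.000343). Pik3ca, a catalytic subunit of phosphoinositide 3-kinase, rose (0.54, edgeR adjusted p = 8.01e-12), and the adaptor Crkl fell (-0.42, adjusted p = 3.23e-07). Fyn, a Src family kinase, was 1.80-fold lower in unstimulated and 1.80-fold lower in stimulated KO than in WT BMMCs (adjusted p = 1.71e-15 and 5.13e-15). Lat2, an adaptor phosphorylated after KIT and IgE receptor engagement, was 1.30-fold and 1.36-fold higher in KO, and Pik3r2, a regulatory subunit of phosphoinositide 3-kinase, 1.61-fold and 1.77-fold higher. Means in unstimulated HZ BMMCs were also above WT, at 1018 against 699.9 CPM for Lat2 and 22.5 against 13.1 CPM for Pik3r2. The Lat2 mean was then higher in HZ than in KO (908 CPM). Mean Fyn in unstimulated HZ was below WT (37.7 against 57.4 CPM). After antigen the HZ means of Fyn, Lat2 and Pik3r2 lay between those of WT and KO.

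Of 24 inhibitors of signalling from these receptors, 13 rose and 6 fell in WT BMMCs (median 0.13), 6 of them rising 2-fold or more. Of all genes, 22.4% rose, 22.9% fell and 6.77% met 2-fold in either direction. Socs3, whose product blocks JAKs at the receptor, rose 12.2-fold (from 271 and 313 to 3010 and 3189 counts, edgeR adjusted p = 4.07e-37), Spry2, an inhibitor of signalling from receptor kinases to ERK, 9.61-fold, and Cish, a STAT5 target that acts back on the IL-3 receptor pathway, 3.90-fold. Spry1 had 1 to 14 counts in each unstimulated library and, after antigen, 220 and 229 in WT, 485 and 432 in HZ libraries and 938 and 874 in those of KO BMMCs, 4.24-fold higher in stimulated KO than in WT (adjusted p = 1.65e-17). Spry4 went the other way between genotypes, with 103 and 89 counts in stimulated WT and 21 and 11 in KO libraries (edgeR adjusted p = 6.64e-05). Stimulated HZ libraries had 15 to 23 Spry4 counts.

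Of 18 genes listed as STAT5 targets, which share Cish, Socs1, Socs2 and Socs3 with the inhibitor list, 11 rose and 3 fell in WT BMMCs (median 0.51), 10 rose and 4 fell in HZ (median 0.58), and 10 rose and 5 fell in KO BMMCs (median 0.45). The shares of all genes that rose were 22.4%, 32.9% and 20.4%, and the shares that fell 22.9%, 31.6% and 20.5%. Osm, a cytokine of the IL-6 family, rose 16.00-fold in WT BMMCs and was 2.14-fold lower in unstimulated and 1.79-fold lower in stimulated KO than in WT (edgeR adjusted p = 2.21e-32 and 1.06e-30). Socs2, an inhibitor of cytokine receptor signals, was 1.85-fold and 1.91-fold lower in KO. Both were below WT in unstimulated HZ BMMCs too, at means of 68.4 against 165 CPM for Osm and 51.3 against 74.2 CPM for Socs2. Gfi1, a transcriptional repressor, fell with antigen in WT BMMCs (-1.32, adjusted p = 3.01e-14).

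The positive medians of the adaptor and inhibitor lists in WT BMMCs were smaller in size than the shift of -0.32 that scaling by library totals gave there, so their sign depends on the scaling. Between unstimulated KO and WT BMMCs, 3 JAK and STAT genes were higher and 4 lower, 6 adaptor genes higher and 4 lower, 6 inhibitors higher and 9 lower, and 5 STAT5 targets higher and 6 lower, against 22.9% of all genes higher and 21.7% lower. Of the beta common chain list 4 of 5 genes were lower, and of the gamma chain list 2 were higher and 3 lower. After antigen the JAK and STAT genes held 5 higher and 4 lower, the adaptors 7 and 4, the inhibitors 5 and 8, and the STAT5 targets 5 and 5, against 21.2% of all genes higher and 19.2% lower.

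For each receptor gene the genes with the most similar pattern were sought by Pearson's r of log2(CPM + 1) over the 12 libraries, among 8383 genes averaging at least 10 CPM. The libraries share depth, stimulation and genotype, so these values describe the pattern only. Il4ra was most like Abhd15 (0.994), Tsc22d3 (0.990) and Arhgef3 (0.990), and Il9r most like Skap1 (0.987), Syt9 (0.978) and Pja2 (0.976). Csf2rb was most like Sugp2 (0.993), Mtmr3 (0.991) and Rsrp1 (0.991), and Csf2rb2 most like Prkcd (0.985), Fam155a (0.977) and Nr1d2 (0.976). For Il2rg they were Rabgef1 (0.992), Arf4 (0.991) and Zfp281 (0.991), for Il10ra Ndrg1 (0.981), Ncoa4 (0.978) and Serpina3f (0.978), for Kit Arap1 (0.977), Arhgap45 (0.970) and Cyp4a12a (0.968), and for Ifngr1 Pias3 (0.972), Smad1 (0.969) and Exoc3 (0.966). Il3ra had the weakest likeness, with Ostm1 (0.938), Strn (0.901) and Ptms (0.893). Among the 9 receptor genes themselves, Csf2rb and Csf2rb2 had an r of 0.90, Kit and Csf2rb 0.88, and Csf2rb and Il2rg -0.93.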

How the data were processed

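Total RNA was sequenced from 12 BMMC libraries. Per the labels' processing notes, the authors processed reads with fastp, HISAT2 and HTSeq against GRCm39; versions, strand setting and annotation are not given in the sources used here. The deposited raw counts per gene were tested. The deposited FPKM values, which the authors scaled by length and library, were used to compare levels between genes and for ratios. Counts were normalized by trimmed-mean (TMM) factors and fitted with edgeR 4.0.16 (quasi-likelihood, filterByExpr, R 4.3.3) in 1 model of 6 groups over 12208 genes; p-values were Benjamini-Hochberg adjusted over all of them, 2-fold was counted beside an adjusted p of 0.05, and intervals are at 95%. The biological coefficient of variation was 4.01%. The study's methods name DESeq; DESeq2 1.42.0 and limma 3.58.1 (log2(FPKM + 1) or + 0.1, mean FPKM of at least 0.5 or no filter) were alternatives, with other scalings, low count filters, an adjusted p of 0.01, replicate blocks and leaving out each library. Within every group the 2 libraries differed beyond counting noise (chi-square per gene 2.94 to 5.29), so none was counted as a repeat. The fit was also run on simulated data in which all genes shared the same spread and few changed. That setting is simpler than these data, so it cannot show that the calls here hold. The receptor genes and lists were chosen with earlier results of these data known. Genes named from a list were up to 4 with the largest called change in stimulated against unstimulated WT, and up to 3 in KO against WT before and after antigen, at a mean of at least 1 CPM in the higher group. Csf2ra, Ifngr2, Il13ra1, Il11ra1 and Il12rb2 were named outside that rule after their values were seen. For each receptor gene the 3 most similar genes by Pearson's r were also named. Sequences came from RefSeq (GRCm38.p6) and GENCODE M21, a build other than that of the counts, so they were matched by symbol only. Protein sequences were not used here.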

Additional observations from a re-analysis of the deposited data

Results flagged for a closer look

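The response to antigen, meaning the log2 fold change of stimulated over unstimulated BMMCs, differed between genotypes for 6 receptor genes by the test of the difference itself (edgeR, adjusted p below 0.05 over 12208 genes). In HZ minus WT the difference was -0.76 for Il10ra, -0.42 for Csf2rb2, -0.35 for Il4ra, -0.25 for Il3ra, -0.24 for Csf2rb and -0.15 for Kit. Of these, the Kit and Il3ra calls were lost in all limma fits, and that of Il3ra also with library totals. In KO minus HZ the difference was 0.64 for Il10ra, 0.48 for Il4ra, 0.45 for Csf2rb2, 0.32 for Csf2rb, 0.25 for Il3ra and 0.15 for Kit. The Kit call there was lost with limma on log2(FPKM + 1) without a filter (0.096, limma adjusted p = 0.0556). The KO minus HZ difference of Il3ra lost its call without the second unstimulated HZ or the first unstimulated KO library. It was lost in all limma fits too (0.20, limma adjusted p = 0.0653 to 0.156). These sets share the HZ libraries. In KO minus WT the difference was 0.13 for Il4ra and 0.089 for Csf2rb. Groups of 2 libraries are too small for a test of single outlying libraries.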

How the results depend on the processing

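Of 108 values (9 genes in 12 comparisons) 80 passed the test. Under the alternatives these gave 1336 values, of which 1273 kept their direction and their call, 63 kept their direction and lost the call and 0 turned direction. Leaving out a library in turn accounted for 31 of the 63, a lone sample then being assumed to vary like the other groups. The count for stimulated KO against WT was 6, and 3 with limma on log2(FPKM + 1) without a filter. It ran from 3 to 6 when a library was left out, the lowest without the second stimulated KO library. The count for KO minus WT responses was 2, and 1 at an adjusted p below 0.01, and ran from 1 to 2 when a library was left out. Without the first unstimulated WT or the first unstimulated KO library neither Csf2rb nor Il4ra passed, and the 1 gene counted was Il10ra (-0.14 and -0.15). The cause was not tested. Scaling by library totals also moved the share of higher calls over all genes from 51.7% to 40.7% in stimulated KO against HZ and from 51.6% to 64.4% in the HZ minus WT response. With limma on log2(FPKM + 1) and a mean FPKM of at least 0.5, these shares were 39.4% and 64.4%, and the share in stimulated HZ against WT moved from 52.7% to 63.3%. With log2(FPKM + 0.1) the share in the KO minus HZ response moved from 48.6% to 37.9%.

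Sample titles number the unstimulated and stimulated libraries of a genotype alike. Little shared deviation was seen between same-numbered libraries, with r of -0.028, 0.11 and 0.011 in WT, HZ and KO. So low an r cannot exclude that they came from the same animal or culture. With a replicate block 7 genes passed in stimulated HZ against WT instead of 6 and 3 in KO minus WT instead of 2. With the block within genotype these were also 7 and 3, and 4 passed in stimulated KO against WT instead of 6. The other 9 counts stayed at their value under both blocks. With 2 libraries a group, the spread rests on pooling over groups and genes. Counting error weighs most on Ifngr1 and on Il9r in KO libraries, the lowest of the 9 genes, and Ifngr2 and Il13ra1 were too low to compare.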
